A study of Mus musculus with 2 samples.

Results

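The TGF-beta superfamily genes of mouse LSK cells were compared between wild-type and PAD4-deficient mice. The family was taken by gene name. It held every SMAD, TGF-beta, BMP, GDF, activin receptor and inhibin beta gene on the array, with Smurf1, Smurf2, Ski, Skil, Nog and Fst, in all 58 of 27589 genes and 94 of 41170 probes. LSK cells are bone marrow cells without lineage markers that carry Sca-1 and c-Kit, and they hold the blood stem cells and multipotent progenitors. Cells of each group were sorted by flow cytometry from marrow of mice on the C57BL/6 strain. The wild-type and the PAD4-deficient cells had 1 array each; the latter are labelled deficient in PAD4, the enzyme encoded by Padi4, which converts arginine in proteins to citrulline. The sources used here do not give how Padi4 was disrupted, how many mice were pooled or how old they were.

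TGF-beta superfamily ligands are secreted dimers. Most of them join type II and type I receptor kinases on the cell surface, and the type I receptor phosphorylates a receptor SMAD, which enters the nucleus with SMAD4. TGF-beta and activin ligands act mainly through SMAD2 and SMAD3, BMP ligands through SMAD1, SMAD5 and the SMAD9 product. SMAD6, SMAD7, the SMURF ubiquitin ligases and the corepressors SKI and SKIL restrain the signal. In bone marrow, TGF-beta is known for holding stem cells in quiescence.

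Most receptors and SMADs that were measured had similar signals on both arrays. Of the 58 genes, 38 (65.5%) were measured, that is, well above background on both arrays by the same probe, against 61.7% of all genes. Past 1.5-fold, Gdf3 was the 1 member with more signal in PAD4-deficient cells and Gdf11 the 1 with less. The same held for 2.88% (higher), 1.87% (lower) and together 4.75% of the 17019 measured genes, so the members' counts were near the background. Both members were also past 2-fold, as were 1.01% (higher), 0.476% (lower) and together 1.49% of measured genes. A further 4 members, Smad9, Inhbc, Acvr1c and Acvrl1, passed background in PAD4-deficient cells alone, and Tgfbr3 in wild-type cells alone. Of all genes, 2.28% passed in PAD4-deficient cells alone and 1.87% in wild-type cells alone.

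Differences are given on the log2 scale, as PAD4-deficient minus wild-type, after each array was scaled to its 75th percentile. The error beside a difference is the scanner software's spot error over both arrays, about 0.20 for bright probes, and says nothing of how mice vary. With 1 array per group no test was possible, and no difference has a replicate check. In RNA of a sorted population, fewer cells of a type and less RNA per cell cannot be told apart.

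Several features of the arrays as a whole touch the values that follow. The Padi4 signal was 12879 in wild-type and 2670 in PAD4-deficient cells (difference -2.22, error 0.20). All 3 Padi4 probes stayed well above background on both arrays, and whether they lie in the disrupted stretch of the gene was not tested. Kit (0.07) and Ly6a, which encodes Sca-1 (-0.14), were within their error of 0.20; of all 6 LSK markers, each measured, Flt3 (-0.67) was past 1.5-fold, and their summed signal was 111506 and 100824. Past 1.5-fold higher in PAD4-deficient cells were 4 of 5 measured erythroid markers, 3 of 4 mast cell and basophil markers, 3 of 5 B and plasma cell markers, 2 of 4 T and NK cell markers, 1 of 6 neutrophil, 1 of 6 monocyte and macrophage and 1 of 6 megakaryocyte and platelet markers. The summed signal went from 5032 to 5625 for erythroid, from 2009 to 3568 for mast cell, from 695 to 2148 for B and plasma cell, from 336 to 480 for T and NK cell, from 87871 to 126797 for neutrophil, from 1720 to 1933 for monocyte and from 17057 to 17297 for megakaryocyte markers. Cd3g and Ncr1 were well above background on neither array. Of 4 measured stromal and endothelial markers, all were below 0 and 2 at least 1.5-fold lower, with a summed signal of 4017 and 2997; Cdh5, Col1a1 and Lepr were well above background on neither array. The arrays also differed in sex-linked transcripts. All 4 Xist probes passed background in PAD4-deficient cells alone, at least 12.6-fold to at least 951-fold higher. Ddx3y had signals of 3455 and 1298, differing by -1.36, with both probes well above background on both arrays. Xist and Ddx3y were thus both detected in PAD4-deficient cells. The part of these cell types and of sex in the members' differences was not tested.

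Of the members that were past 2-fold, by a measured difference or an at-least fold, Smad9, Gdf11, Inhbc and Acvr1c had a promoter entry. These promoters are printed here, chosen with the values known, together with that of Smad6, an inhibitory SMAD and the only member promoter with the palindromic SMAD element. They are from RefSeq on GRCm38.p6, where 40 of the 58 members had an entry (the first listed was taken), and run from 250 bases before to 50 bases after the start of the gene, 5′ to 3′ on the gene's strand. Capitals mark the SMAD box CAGAC, the GC-rich element GGCGCC, known from BMP target genes, and the palindromic SMAD element GTCTAGAC. Each was searched on both strands, so that the SMAD box may stand as its reverse complement; the marked matches do not overlap.
Smad9, chr3:54755332-54755631, plus strand: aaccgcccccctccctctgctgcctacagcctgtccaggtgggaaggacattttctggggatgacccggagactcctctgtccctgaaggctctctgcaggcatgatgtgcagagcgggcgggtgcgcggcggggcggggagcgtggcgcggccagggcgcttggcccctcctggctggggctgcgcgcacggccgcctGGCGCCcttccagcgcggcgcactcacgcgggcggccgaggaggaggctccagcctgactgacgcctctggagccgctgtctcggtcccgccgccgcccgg
Gdf11, chr10:128891669-128891968, minus strand: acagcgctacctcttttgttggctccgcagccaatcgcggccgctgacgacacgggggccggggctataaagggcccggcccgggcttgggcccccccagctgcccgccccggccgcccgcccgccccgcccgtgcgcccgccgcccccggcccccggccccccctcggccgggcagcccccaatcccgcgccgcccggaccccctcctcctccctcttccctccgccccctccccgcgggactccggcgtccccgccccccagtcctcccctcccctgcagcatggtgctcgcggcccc
Inhbc, chr10:127370499-127370798, minus strand: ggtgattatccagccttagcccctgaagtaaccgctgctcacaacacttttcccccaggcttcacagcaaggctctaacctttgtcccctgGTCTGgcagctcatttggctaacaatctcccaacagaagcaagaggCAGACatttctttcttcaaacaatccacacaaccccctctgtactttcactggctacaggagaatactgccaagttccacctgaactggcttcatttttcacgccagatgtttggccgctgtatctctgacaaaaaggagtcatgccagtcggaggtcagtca
Acvr1c, chr2:58357709-58358008, minus strand: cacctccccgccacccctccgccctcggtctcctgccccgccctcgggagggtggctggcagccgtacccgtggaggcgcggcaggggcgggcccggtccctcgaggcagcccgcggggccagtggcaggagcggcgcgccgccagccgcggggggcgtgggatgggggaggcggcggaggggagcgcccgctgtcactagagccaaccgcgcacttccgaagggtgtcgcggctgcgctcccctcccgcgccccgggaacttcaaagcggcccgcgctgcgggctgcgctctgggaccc
Smad6, chr9:64022010-64022309, minus strand: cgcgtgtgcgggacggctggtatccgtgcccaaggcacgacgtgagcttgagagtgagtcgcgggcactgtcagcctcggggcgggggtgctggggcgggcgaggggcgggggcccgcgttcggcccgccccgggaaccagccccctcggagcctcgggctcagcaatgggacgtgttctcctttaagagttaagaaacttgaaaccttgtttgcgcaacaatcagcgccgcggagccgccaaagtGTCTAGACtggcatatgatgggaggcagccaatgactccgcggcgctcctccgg

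The Smad6 promoter held the palindrome GTCTAGAC from position -4, counted from the start, an element found in 0.211% of all 27025 promoters. The Smad9 promoter held GGCGCC once, from position -51, and the Inhbc promoter held the SMAD box 2 times. The Gdf11 and Acvr1c windows held none of the 3 motifs. CAGAC was present in 18 of 40 member promoters (45%) and in 49.7% of all promoters, and GGCGCC in 12 of 40 (30%) and in 12.0%. Member promoters were richer in GC, with a median of 65.2% against 52.7%. A match is a run of letters and not a bound site.

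Among the ligands, 15 of 28 were measured and the groups within them were detected unevenly. Both Tgfb1 and Tgfb3, 7 of 11 GDF genes and 3 of 4 inhibin beta genes were measured, against 3 of 10 BMP genes (Bmp4, Bmp7 and Bmp8a). Well above background on neither array were Tgfb2, Bmp2, Bmp3, Bmp5, Bmp6, Bmp8b, Bmp10, Bmp15, Gdf2, Gdf6, Gdf8 (myostatin) and Gdf10. Measured ligands had a median difference of 0.08 (all measured genes, 0.02), with 9 above and 6 below 0.

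Tgfb1 encodes the TGF-beta isoform that predominates in blood cells. Its probe (mm8 chr7:25413618-25413677), read from 10 spots in wild-type and 9 in PAD4-deficient cells, gave signals of 4255 and 4138. The difference was 0.01 with an error of 0.20, and the spots of an array had an SD of 0.05 and 0.04 on the log2 scale. The Tgfb1 difference was thus smaller than the spread between spots. Tgfb3 had signals of 126 and 143, a difference of 0.23 (error 0.21).

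Gdf11, a relative of myostatin that signals through activin type II receptors, had the largest difference of any measured member. Its single probe (mm8 chr10:128288177-128288236) had signals of 104 (wild-type) and 21.2 (PAD4-deficient), a difference of -2.24 with an error of 0.33. Before background subtraction the spot had a mean pixel signal of 183 with a pixel SD of 55.5 on the wild-type array and of 96.8 with a pixel SD of 15.8 on the other, over local backgrounds of 43.0 and 47.5. In PAD4-deficient cells the lowest signal of any probe well above background was 18.5, so Gdf11 lay just inside detection there. With normexp background correction the difference was -0.96 with an offset of 50 and -1.66 with none.

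Gdf3, a ligand known from pluripotent cells, went the other way. Its probe (mm8 chr6:122572371-122572430) had signals of 99.7 and 217, a difference of 1.17 with an error of 0.21. Before background subtraction the mean pixel signal of Gdf3 was 176 in wild-type and 297 in PAD4-deficient cells, over local backgrounds of 44.0 and 47.0. With normexp the difference was 0.79 with the offset and 1.01 without it. Gdf3 and Gdf11 both rest on 1 probe.

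Of the other 5 measured GDF genes, Gdf15 was below 0 by more than its error. Gdf15, a stress-induced ligand, had signals of 1614 and 1289, differing by -0.27 (error 0.20). Gdf1 (0.11), Gdf5 (-0.15), Gdf7 (0.09) and Gdf9 (0.08) were within their errors. Gdf1 is known to share a transcript with Cers1, so its probe may read either gene. Bmp7 had -0.31 (error 0.21) at a probe with 1 spot on each array. Its second probe, read from 10 spots on each array, had -0.14, within its error of 0.22. With normexp at an offset of 50 the Bmp7 difference was -0.16. Bmp4 (-0.05) and Bmp8a (0.19) were within their errors. Bmp8a has a near-identical copy, Bmp8b, and cross-reading between them was not tested.

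The inhibin beta genes, whose products pair into activins and inhibins, were dim. Inhba, the activin A subunit, had signals of 76.8 and 96.9, differing by 0.39 (error 0.22). Inhbb had signals of 19.8 and 25.7, near the lowest ones well above background (17.7 and 18.5). It differed by 0.42 with an error of 0.40, and by 0.19 with normexp at an offset of 50. The second Inhbb probe was well above background on neither array. Inhbc passed background in PAD4-deficient cells alone, by 1 of its 2 probes, with signals of 12.7 and 79.5, at least 4.65-fold higher. At the second probe the signals were 16.8 and 13.8, on neither array well above background. The Inhbe probe, 7.09 kb from those of Inhbc on mm8 chromosome 10, had signals of 46.4 and 39.7, differing by -0.18 (error 0.28). The Inhbe difference was thus within its error.

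**Figure D1:**
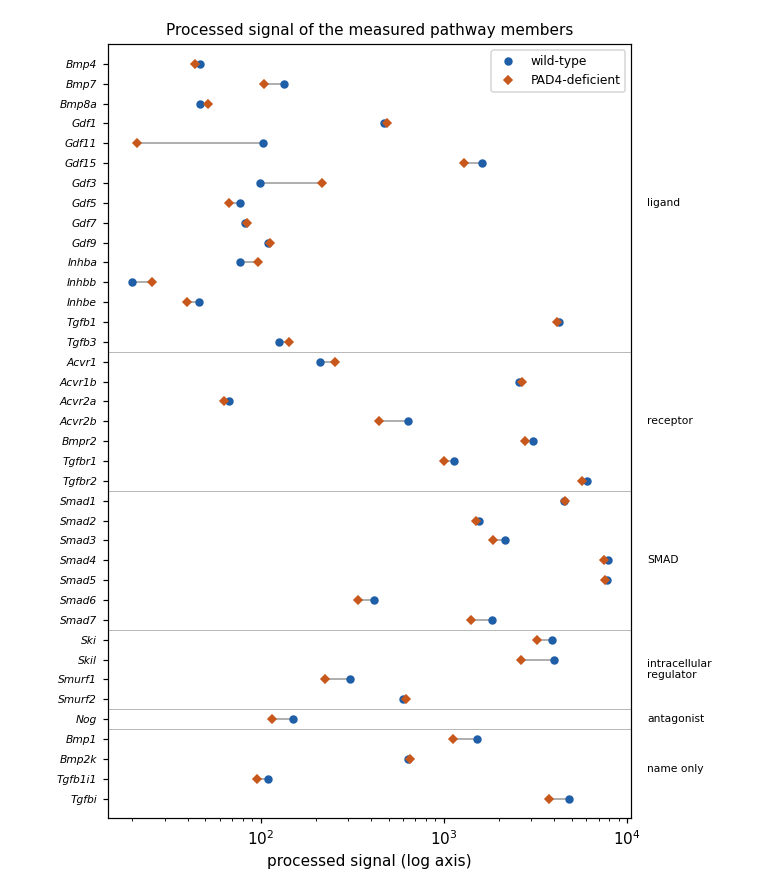
Processed signal (log axis) of the 38 measured members on the wild-type array (circles) and the PAD4-deficient array (diamonds), 1 row per gene, grouped by role; each point is 1 probe on 1 array. Points are to be compared within a row only: the pair stands far apart for Gdf11 (104 and 21.2) and Gdf3 (99.7 and 217) and close together for Tgfb1 (4255 and 4138).

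Among the receptors, 7 of 12 were measured, with a median difference of -0.05 and none 1.5-fold different. Tgfbr2, the type II receptor of TGF-beta, had signals of 6052 and 5666 at its brightest probe, a difference of -0.05 (error 0.20). A second probe (mm8 chr9:115958776-115958835) that carries the accession of another Tgfbr2 transcript had signals of 53.6 and 31.1, a difference of -0.73 (error 0.29), and the third had -0.17. The Tgfbr2 probes therefore spanned 0.69, the widest range among the 17 members with 2 or more measured probes. Tgfbr1, the type I receptor, had signals of 1131 and 1002, differing by -0.13 (error 0.20), with 0.11 at its dim probe. Tgfbr3, a coreceptor that presents TGF-beta, passed background in wild-type cells alone, with signals of 19.5 and 15.5, at least 1.02-fold lower.

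Of the BMP receptors, Bmpr2, the type II receptor, had signals of 3050 and 2763 and differences of -0.09, -0.04 and 0.06 over its 3 probes. Bmpr1a, a type I receptor, was well above background on neither array by either probe: the brighter probe had signals of 7.0 and 20.2. Bmpr1b, the other, had signals of 3.60 and 3.70 and was not well above background either. Acvr1, a type I receptor for BMP ligands, had signals of 210 and 254, a difference of 0.33 (error 0.21).

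Of the activin receptors, Acvr2b, a type II receptor that binds activins, myostatin and GDF11, had signals of 636 and 444, a difference of -0.47 (error 0.20). Its counterpart Acvr2a had signals of 67.0 and 63.3, differing by -0.03 (error 0.25), with 0.17 at a second probe. Acvr1b, the type I receptor of activins, had signals of 2577 and 2666, differing by 0.10 (error 0.20), with -0.14 at its dim probe. Acvr1c, another type I receptor, passed background in PAD4-deficient cells alone, by 1 of 3 probes, with signals of 6.60 and 79.0, at least 4.62-fold higher. Both other Acvr1c probes lay between 3.60 and 3.90 on both arrays. Acvrl1, the type I receptor known from endothelium, had signals of 15.0 and 24.1 and was at least 1.41-fold higher.

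**Figure D2:**
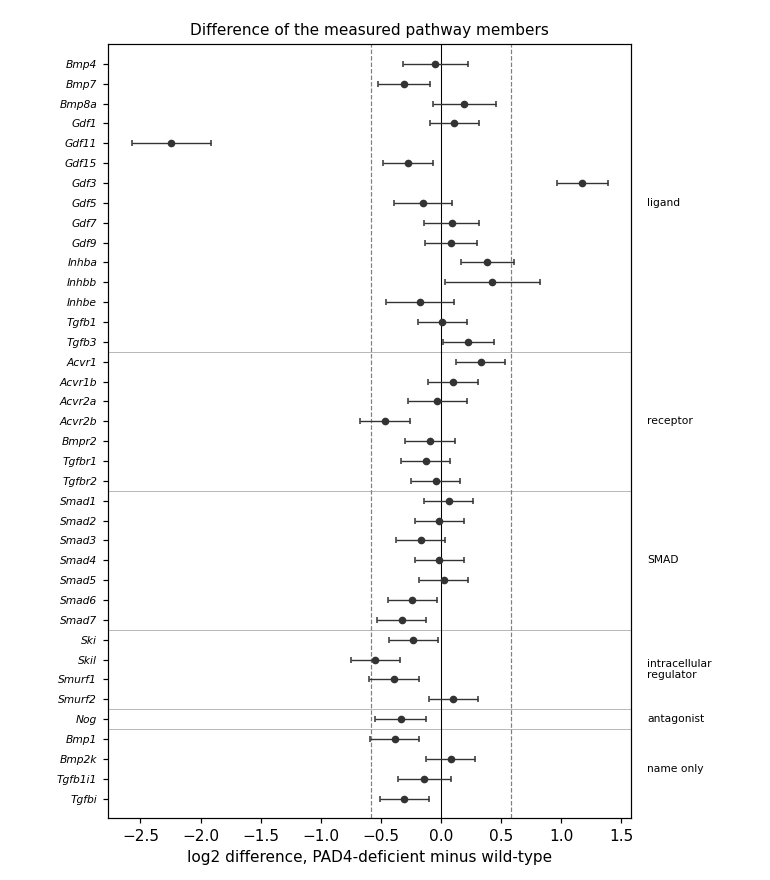
Log2 difference (PAD4-deficient minus wild-type) of the 38 measured members by role, from the brightest measured probe of each gene on 1 array per group; bars are the spot error of the scanner software and dashed lines mark 1.5-fold. Gdf11 (-2.24) and Gdf3 (1.17) lie outside the dashed lines and Skil (-0.55) lies just inside.

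The SMADs were the most fully detected large group: 7 of 8 were measured, against 61.7% of all genes. All 8 passed background in PAD4-deficient cells, Smad9 by only 1 of its 2 probes, against 64.0% of all genes. Their median difference was -0.02, and none of the 7 measured SMADs was 1.5-fold different. Smad4, the shared partner, had signals of 7826 and 7474, differing by -0.02 there and by 0.12 at its second probe. Smad2, of the TGF-beta branch, had signals of 1563 and 1492 and a difference of -0.02. Smad3, of the same branch, had signals of 2155 and 1852 and a difference of -0.17, with -0.12 and 0.07 at its other probes. In the BMP branch, Smad1 had signals of 4517 and 4564, with 0.06 at both probes. Smad5 had signals of 7737 and 7601 and differences of 0.02, -0.45 and -0.01 over its 3 probes. Errors were 0.20 at each brightest probe, so the receptor SMADs and Smad4 lay within them.

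Both inhibitory SMADs, each read by 1 probe, were below 0 by more than their error, as were 14.1% of all measured genes. Smad7, which blocks TGF-beta receptors, had signals of 1836 and 1412, differing by -0.33 (error 0.20). Smad6, which acts mainly on the BMP branch, had signals of 416 and 340, differing by -0.24 (error 0.20). With normexp the Smad6 difference was -0.12 at an offset of 50 and -0.15 with none, both within that error. Neither reached 1.5-fold.

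Smad9 stood apart from the other SMADs. One of its probes (mm8 chr3:54874210-54877139, a span longer than the probe) had a signal of 9.30 in wild-type cells, not well above background, and of 256 in PAD4-deficient cells, at least 14.9-fold higher. The spot there had a mean pixel signal of 336, a median of 301 and a pixel SD of 96.9 over a local background of 47.0; on the wild-type array the mean was 81.4 over 46.5. The other Smad9 probe (mm8 chr3:54877153-54877212), which lies next to it, had signals of 5.30 and 5.10 and was well above background on neither array. The probes thus disagreed on whether the gene was detected at all. Of the 4 members that passed background in PAD4-deficient cells alone, 3 had an at-least fold of 1.5 or more, against 44.9% of 628 such genes, and of those in wild-type cells alone 0 of 1, against 25.4% of 516.

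**Figure D3:**
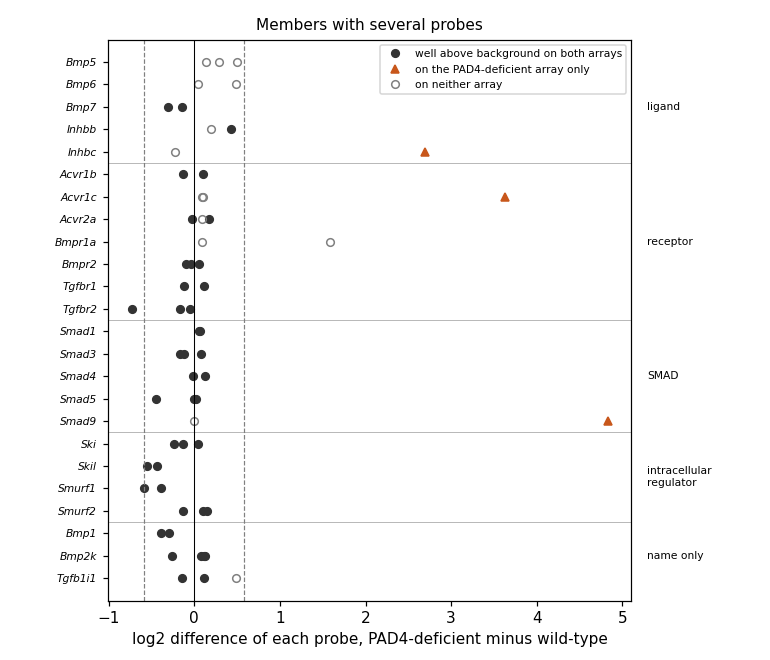
Log2 difference of each probe (PAD4-deficient minus wild-type) for members with 2 or more probes on the array, 1 row per gene; filled circles are probes well above background on both arrays, triangles on the PAD4-deficient one alone and open circles on neither, and dashed lines mark 1.5-fold. The triangles of Smad9, Acvr1c and Inhbc, plotted at the values read and not as bounds, lie far from the other probes of the same gene, while filled circles of a gene span at most 0.69 (Tgfbr2).

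The 4 intracellular regulators were all measured, and their median difference of -0.31 stood against 0.02 for all measured genes. None was 1.5-fold different. Skil, a corepressor that binds SMADs and is itself a TGF-beta target, had signals of 3998 and 2642 at its brightest probe and 127 and 90.9 at the other. The differences were -0.55 (error 0.20) and -0.43 (error 0.22), just inside 1.5-fold (0.58 on the log2 scale). With each array scaled to its median the Skil difference was -0.60, past that line. Smurf1, a ubiquitin ligase that removes receptor SMADs, had signals of 306 and 226, differing by -0.39 (error 0.21), with -0.59 at its second probe (signals 223 and 143), which alone lay just past 1.5-fold. Ski, the second corepressor, had signals of 3902 and 3207, differing by -0.23 (error 0.20), with 0.04 and -0.14 at its other probes. Smurf2 had signals of 599 and 622 and a difference of 0.10, with -0.13 and 0.15 at the others.

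Of the extracellular antagonists, Nog, which traps BMP ligands, had signals of 151 and 115, differing by -0.34 (error 0.21; -0.17 with normexp at an offset of 50). Fst, which traps activins, was well above background on neither array. The name pattern also took 4 genes that are neither ligands, receptors nor SMADs. Tgfbi, a matrix protein named for its induction by TGF-beta, had signals of 4804 and 3752, differing by -0.31 (error 0.20). Bmp1, a protease that cleaves procollagen and chordin, had signals of 1514 and 1121, with differences of -0.38 and -0.30 at its 2 probes. Tgfb1i1 (-0.14) and Bmp2k (0.08) were within their errors.

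Taking all 38 measured members, 23 lay below 0 and 15 above, with a median of -0.05; of all measured genes, 7657 lay below 0 and 9362 above. The differences of 17 members (44.7%) were larger than their own error, 12 of them lower and 5 higher. Among all measured genes, 30.1% were past their error, 14.1% lower and 16.1% higher. The member count depended on the background correction. With normexp at an offset of 50, Bmp7 (-0.16), Inhbb (0.19), Nog (-0.17) and Smad6 (-0.12) were within those errors. The share of all genes under normexp is not given here. Below the lower quartile of all measured genes (-0.12) lay 17 members (44.7%), and above the upper quartile (0.15) lay 6 (15.8%). Of the 17 members past their own error, the 5 higher ones were all ligands (Gdf3, Inhba, Inhbb and Tgfb3) except Acvr1. The 12 lower ones past their error were Gdf11, Gdf15, Bmp7, Acvr2b, Smad6, Smad7, Ski, Skil, Smurf1, Nog, Bmp1 and Tgfbi. Among the 17 members with 2 or more measured probes, all probes lay on the same side of 0 in 6, and the probes of 14 spanned less than 0.3. The median range between probes of 1 gene was 0.23. Of the members past their error, Skil (range 0.11), Bmp1 (0.08), Smurf1 (0.20) and Bmp7 (0.17) had all measured probes below 0. The probes of Ski (range 0.27) lay on both sides of 0. The others past their error had 1 measured probe, so agreement between probes could not be judged for them.

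Measured genes that act in the pathway but lie outside the family had a median difference close to 0, with exceptions given below. Of 63 partner genes on the array (latent TGF-beta binding proteins, antagonists, integrins and SMAD cofactors), 47 were measured, with a median of -0.04; past 1.5-fold were 0 upward and 2 downward, against 2.88% and 1.87% of all measured genes. Itgb8, an integrin chain that activates latent TGF-beta, had signals of 136 and 29.5, differing by -2.16 (error 0.28), by 1 of its 3 probes. The lower Itgb8 signal was near the lowest one well above background in PAD4-deficient cells (18.5). No normexp value is given here for Itgb8. Bgn, a matrix proteoglycan that binds TGF-beta and is also 1 of the stromal markers above, had signals of 176 and 110, differing by -0.63 (error 0.21). Thbs1, thrombospondin, another activator of latent TGF-beta, passed background in PAD4-deficient cells alone, by all 3 of its probes. The probes gave bounds from at least 1.98-fold to at least 6.96-fold higher, with signals of 17.7 and 119 at the probe brightest in wild-type cells. Thrombospondin is also made by platelets and macrophages, whose markers are given above. The part of these cells in the Thbs1 signals was not tested.

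Transcriptional targets of the pathway went in both directions. Of 34 on the array 24 were measured, with a median of -0.04. Past 1.5-fold were 3 upward and 3 downward, 6 of 24 together, against 4.75% of all measured genes. The list was chosen with earlier results of these data known, so these shares cannot show an excess among targets. The ID genes, direct BMP targets that block helix-loop-helix factors, did not move together: Id1 had signals of 845 and 717, differing by -0.19 (error 0.20), Id3 had 1309 and 900.4 and -0.49 (error 0.20), and Id2 had 847 and 1344 and 0.72 (error 0.20), with 0.84 at its second probe. Myc, which TGF-beta represses in many cells, had 0.87 (error 0.20), with 0.99 and 0.24 at its other probes. Itgae, an integrin chain that TGF-beta induces in lymphocytes, had 0.67 (error 0.24). Cdkn1a, the p21 cell cycle inhibitor, had -0.61, and Hes1 and Hey1, which Notch also drives, had -0.85 and -0.68, each with an error of 0.20 or 0.21. Cdkn1c, the p57 inhibitor linked to quiescence, had signals of 825 and 785 and a difference of -0.02. Cdkn2b, a cell cycle inhibitor and textbook TGF-beta target, was well above background on neither array.

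**Figure D4:**
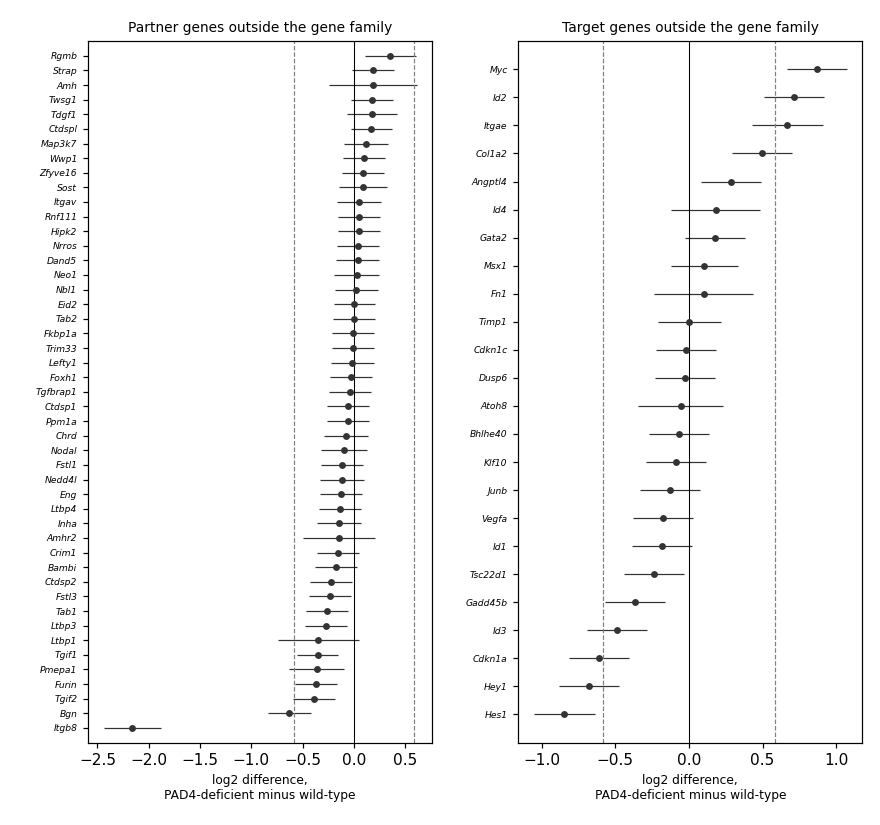
Log2 difference (PAD4-deficient minus wild-type) of the 47 measured partner genes (left) and the 24 measured target genes (right) outside the family, sorted by value; bars are the spot error and dashed lines mark 1.5-fold. Itgb8 (-2.16) lies far below the other partners, and targets lie outside the lines on both sides, from Hes1 (-0.85) to Myc (0.87).

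Background correction and its offset mattered for the dim members with large differences. With normexp at an offset of 50, Gdf11 and Gdf3 moved by more than their error and both stayed past 1.5-fold, while the other 36 measured members moved by less than their error. Without an offset, Gdf11 (-1.66) still moved by more than its error and Gdf3 (1.01) did not.

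**Figure D5:**
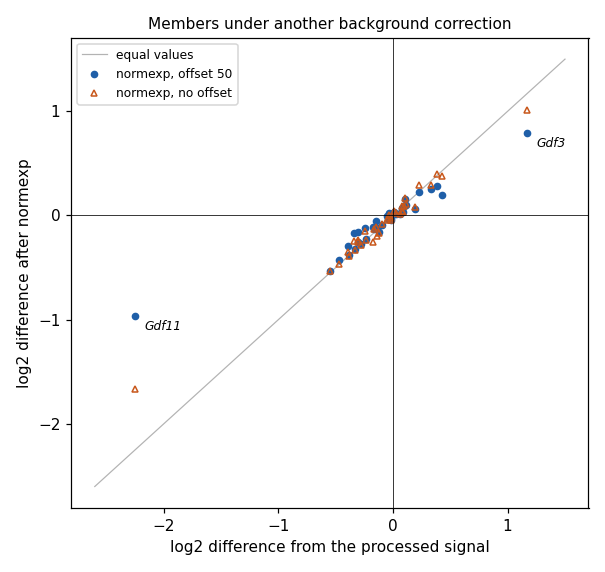
Log2 difference of the 38 measured members from the processed signal (horizontal axis) against the same after normexp background correction (vertical axis), with an offset of 50 (filled circles) and without one (open triangles); the line marks equal values. Most members lie along the line, and Gdf11 lies above it, at -0.96 and -1.66 against -2.24.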

How the data were processed

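Per the file headers, the RNA was read in 1 colour on Agilent design 014868 with Feature Extraction 9.5.3.1 and probe positions on mm8, and the arrays shared slide and scan. Version 9.5 of that program stands in the submitters' processing notes. In the scanner files that the authors deposited, spot intensity is linear, background-subtracted and detrended, with dim values replaced by surrogates. The authors' deposited table of values is in log2 units; checked against the scanner values, it was log2 of the processed signal minus a constant for each array (9.67 and 9.62), with column medians of -3.59 and -3.53 and the same direction, so scale, centring and direction were settled.

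The value of a probe was the mean log2 processed signal of its unflagged spots minus the array's 75th percentile (signals 814 and 786). A probe was well above background where most of its spots were flagged so by the scanner software. Over all probes, 63.9% passed in wild-type and 64.1% in PAD4-deficient cells, and no member probe was saturated. A gene took its brightest probe measured on both arrays. For an at-least fold, the dim side was the probe's own value or, if higher, the lowest one well above background on that array (signals 17.7 wild-type, 18.5 PAD4-deficient). The number of arrays limits the precision, and no statistical test was run. Gene symbols, and no coordinates of probes, came from RefSeq (GRCm38.p6): 24484 probes matched by accession, 6240 by symbol and 2385 by synonym, while 8061 stayed as named by the scanner files; all 58 members matched. Of 64 partner genes listed, 63 were found, and all 34 targets.

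The members and lists were chosen with earlier results of these data known. All members are accounted for; full values were given to members at least 1.5-fold different, to a fixed core set of receptors and mediators and to those whose probes disagreed; other values are examples. Partner and target genes were named at 1.5-fold, beside a fixed set that included Id1, Id2, Id3, Cdkn1a, Cdkn1c, Cdkn2b and Myc; some items of the lists are not reported here. Alternatives were normexp with an offset of 50 and with none, median scaling, the percentile of detected probes, quantile normalization, loess (window 0.3), the authors' table, averaging a gene's probes, looser filters on signal, and folds of 2 and 3. The steps were tested on simulated data. Python 3.11.15, numpy 2.4.6, pandas 2.3.3 and statsmodels 0.14.6 did the computing, and normexp ran in R 4.3.3 (limma 3.58.1).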

Additional observations from a re-analysis of the deposited data

How the results depend on the processing

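No paired analysis was possible because there was a single array for either genotype; for that reason neither leaving out a replicate nor a slide block could be run. The count of members at least 1.5-fold higher, 1, became 5 where passing background on either array sufficed, 9 without any filter and 0 at 3-fold. The count at least 1.5-fold lower, also 1, became 2 with median scaling, which added Skil, and 2 with no filter, which added Bmp2. The looser filters take dim values as measured. Gdf3 and Gdf11 were past 1.5-fold under each of the 10 alternatives of scaling, background, value and filter. The median of the members was -0.10 with median scaling and 0.064 without a filter; for partner genes it was -0.092 with median scaling and -0.079 with the mean over probes. Median scaling moved every gene alike (the median of all genes went from 0.02 to -0.03); for other shifts the cause was not tested. Tgfbr2 was -0.31 with the mean over probes. No difference of a member past 1.5-fold changed sign. Signal over background limits the dim members.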
